A study of Mus musculus with 75 samples.

Results

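Collagens are the main structural proteins that fibroblasts secrete, and 44 of the 24984 genes in the count files are collagen chain genes by their symbol (Col, a number, a, a number). Each collagen is a triple helix of chains, and the classes differ in what they build. The fibrillar collagens, with types I, III and V foremost in skin, form the load-bearing fibrils of the dermis. Type IV chains make the sheet of basement membranes, type VI chains make beaded filaments around cells, and type VIII and X chains make hexagonal networks. The FACIT collagens sit on the surface of fibrils, the multiplexins (types XV and XVIII) lie next to basement membranes, type VII anchors the epidermis to the dermis, and the transmembrane collagens stay in the plasma membrane. Fibroblasts that reach replicative senescence (RS), the arrest that follows repeated division in culture, are known for a changed matrix output, and the question here was how each collagen gene moved on that way and under each intervention.

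The cells were mouse skin fibroblasts. RNA-seq was available at passages P1, P3, P5 and P7 with 4 libraries each, from cells of 2-month-old female C57BL/6 mice passaged until RS, and ATAC-seq peak lists, which mark open chromatin, were available for 4 samples at P1 and 3 each at P3, P5 and P7. Further RNA-seq libraries came from 4 lentiviral experiments with controls of their own. They were E2f4 overexpression from a doxycycline-inducible vector (E2f4_OE, 2 libraries) against the same system without E2f4 (E2f4_OE_control, 2 libraries), hairpin 1 against E2f4 (E2f4_sh1) against non-targeting hairpin (E2f4_nt), hairpins 3 and 4 against Tead1 (Tead1_sh3, Tead1_sh4) against Tead1_nt, and hairpins 5 and 6 against Atf3 (Atf3_sh5, Atf3_sh6) against Atf3_nt, with 3 libraries in each knockdown group. Overexpression used pre-senescent cells at P4 and its control carried EGFP, the E2f4 hairpin was given at P3, the Atf3 hairpins to pre-senescent cells and the Tead1 hairpins to skin fibroblasts. The methods set P2 and P3 cells as proliferating and P6 cells for interventions on senescence without naming the gene, and the hairpin-infected cells were selected with puromycin. The manipulated cells came from 2-month-old or newborn mice, and which libraries came from which age was not given, so levels are not compared between experiments. All manipulated cells, controls included, carried a lentiviral vector. The labels did not say whether replicates were separate animals or cultures, so the p-values measure the spread between these libraries.

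The libraries held 9147324 to 27552949 counts in genes. Fibroblast markers such as Vim and Pdgfra were present in every group. Keratinocyte markers summed to 61.3 to 383 CPM (counts scaled to the library's size after TMM adjustment) at P1 and 4.89 to 8.24 at P7. Skeletal muscle markers summed to 150.6 to 231.6 and 39.3 to 110.5, and endothelial markers to 166 to 184.6 and 8.86 to 12.04. Macrophage markers summed to 307.7 to 465.9 and 33.9 to 49.5, and adipocyte markers to 46.6 to 63.0 and 4.53 to 9.38. All these sums were higher at P1. At P7, 3 of 10 keratinocyte, 4 of 10 muscle, 1 of 8 endothelial and 4 of 8 adipocyte markers had 0 counts. No macrophage marker did. Acta1, the highest muscle marker, was at 57.3 CPM at P1 and 71.0 at P7. Dsp (3.28) and Csf1r (21.8) were the highest keratinocyte and macrophage markers at P7. The part of other cells in the passage differences below was not tested, and in bulk RNA fewer cells of a type and less RNA per cell cannot be told apart. E2f4 was at 1118 and 1180 CPM in the E2f4_OE libraries against 35.5 and 47.5, and at 20.4 to 21.8 with sh1 against 59.6 to 60.8. Tead1 was at 267.9 to 284.9 with sh3 and 313.3 to 320.4 with sh4 against 507.9 to 572.1. Atf3 was low throughout its experiment, at 1.46, 2.10 and 0.45 CPM with sh5 and 1.51, 1.56 and 2.09 with sh6 against 3.31, 2.85 and 2.77, and its decrease passed the adjusted test with sh5 (edgeR adjusted p = 0.0447) but not with sh6 (adjusted p = 0.114). Without replicate 3 of sh5 the sh5 decrease went from log2 -1.14 to -0.71 (edgeR adjusted p = 0.0393). Replicate 3 of Atf3_sh5 stood apart from its group, as a chi-square per degree of freedom of 59.4 to 63.7 against its partners shows beside 3.29 to 10.3 for the other pairs of that experiment. Replicate 3 at P1 held the most keratinocyte RNA, with Krt5 at 150.3 and Krt14 at 134.2 CPM where the other P1 libraries had at most 42.7 and 33.4.

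The promoters of 6 members are shown. The peaks or the hairpins below bear on those of Col8a2, Col3a1, Col1a2, Col10a1 and Col6a3. Col6a1 was called neither in RNA nor in its promoter peak and is the member with AP-1 letters. The stretches shown are the 250 bases before the annotated start in RefSeq on GRCm38 (mm10), read 5′ to 3′ on the strand of the gene. Capitals mark the letters of 5 motifs searched on both strands: AP-1 (TGACTCA or TGAGTCA, the site bound by Jun and Fos dimers, bZIP factors like Atf3), TEAD (GGAATG), E2F, the CCAAT box (CCAAT) and the TATA box (TATAAA). For E2F the letters searched were TTCCCGC, and beside these TTGGCGC, to which were added TTCGCGC and, as the last form, TTGCCGC.
Col8a2 (chr4:126286544-126286793, plus strand): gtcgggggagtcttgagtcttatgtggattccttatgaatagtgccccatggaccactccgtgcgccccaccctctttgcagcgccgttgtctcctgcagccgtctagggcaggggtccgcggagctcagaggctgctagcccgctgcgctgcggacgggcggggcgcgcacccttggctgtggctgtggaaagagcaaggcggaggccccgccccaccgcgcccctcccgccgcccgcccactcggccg
Col3a1 (chr1:45311288-45311537, plus strand): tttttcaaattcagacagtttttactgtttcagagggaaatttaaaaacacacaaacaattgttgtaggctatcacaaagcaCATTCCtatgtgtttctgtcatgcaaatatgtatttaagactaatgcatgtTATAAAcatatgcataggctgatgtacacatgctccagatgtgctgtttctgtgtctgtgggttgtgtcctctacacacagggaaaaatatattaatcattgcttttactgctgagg
Col1a2 (chr6:4505368-4505617, plus strand): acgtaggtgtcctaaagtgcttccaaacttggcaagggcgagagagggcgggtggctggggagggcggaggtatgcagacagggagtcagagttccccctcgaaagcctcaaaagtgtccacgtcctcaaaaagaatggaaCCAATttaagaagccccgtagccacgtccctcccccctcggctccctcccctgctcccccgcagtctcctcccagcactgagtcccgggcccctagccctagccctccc
Col10a1 (chr10:34389731-34389980, plus strand): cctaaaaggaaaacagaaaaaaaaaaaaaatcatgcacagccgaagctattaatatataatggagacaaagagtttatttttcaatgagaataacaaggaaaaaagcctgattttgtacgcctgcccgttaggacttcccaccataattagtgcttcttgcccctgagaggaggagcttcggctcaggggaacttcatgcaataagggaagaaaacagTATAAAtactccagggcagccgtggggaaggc
Col6a3 (chr1:90843972-90844221, minus strand): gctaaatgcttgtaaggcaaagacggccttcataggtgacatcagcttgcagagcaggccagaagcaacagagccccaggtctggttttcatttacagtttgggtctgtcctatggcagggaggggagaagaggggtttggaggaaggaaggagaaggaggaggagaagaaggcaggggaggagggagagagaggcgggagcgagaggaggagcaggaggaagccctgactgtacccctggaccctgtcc
Col6a1 (chr10:76726045-76726294, minus strand): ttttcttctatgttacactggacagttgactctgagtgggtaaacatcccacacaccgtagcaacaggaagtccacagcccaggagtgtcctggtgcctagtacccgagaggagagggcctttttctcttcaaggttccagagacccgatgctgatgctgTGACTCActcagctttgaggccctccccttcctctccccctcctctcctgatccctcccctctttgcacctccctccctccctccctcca

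The Col8a2 and Col6a3 windows hold none of the 5 motifs. The Col3a1 window holds a TEAD match, written CATTCC on this strand, and a TATAAA, the Col10a1 window holds a TATAAA 32 bases before the start, and the Col1a2 window holds a CCAAT 109 bases before it. The AP-1 letters were found in 1 of the 38 member promoters in the table (35 genes), that of Col6a1, which is 2.63% against 4.46% of all 32851 promoters. TEAD letters were in 4 member promoters (10.5% against 12.6%), in Col3a1, Col6a2, Col18a1 and Col20a1. E2F letters were in 3 (7.89% against 7.89%), CCAAT in 13 (34.2% against 33.8%) and TATAAA in 5 (13.2% against 12.4%). A match is a description of letters in this window only.

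Fibrillar collagens dominated the levels. Per kb of exon, which allows genes to be compared, Col1a1 and Col1a2, the chains of type I collagen, led at both ends of the series, at 1517 ± 53.3 and 1077 ± 45.3 CPM per kb at P1 and at 2185 ± 102 and 1737 ± 45.5 at P7 (mean ± SD, n = 4). Next at P1 came Col6a3, a type VI chain, at 513.7 ± 38.6, whose range overlapped that of Col6a1 at 485.4 ± 28.2. Next at P7 came Col3a1, the chain of type III collagen, at 1303 ± 154, with ranges that overlapped neither the chain above nor the chain below, while Col6a3 stood at 228.8 ± 61.9. All 44 members together took 3.81% to 4.11% of the counts at P1, 4.85% to 5.56% at P3, 4.76% to 5.92% at P5 and 4.98% to 5.76% at P7, so the P1 libraries lay below all later ones.

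**Figure D1:**
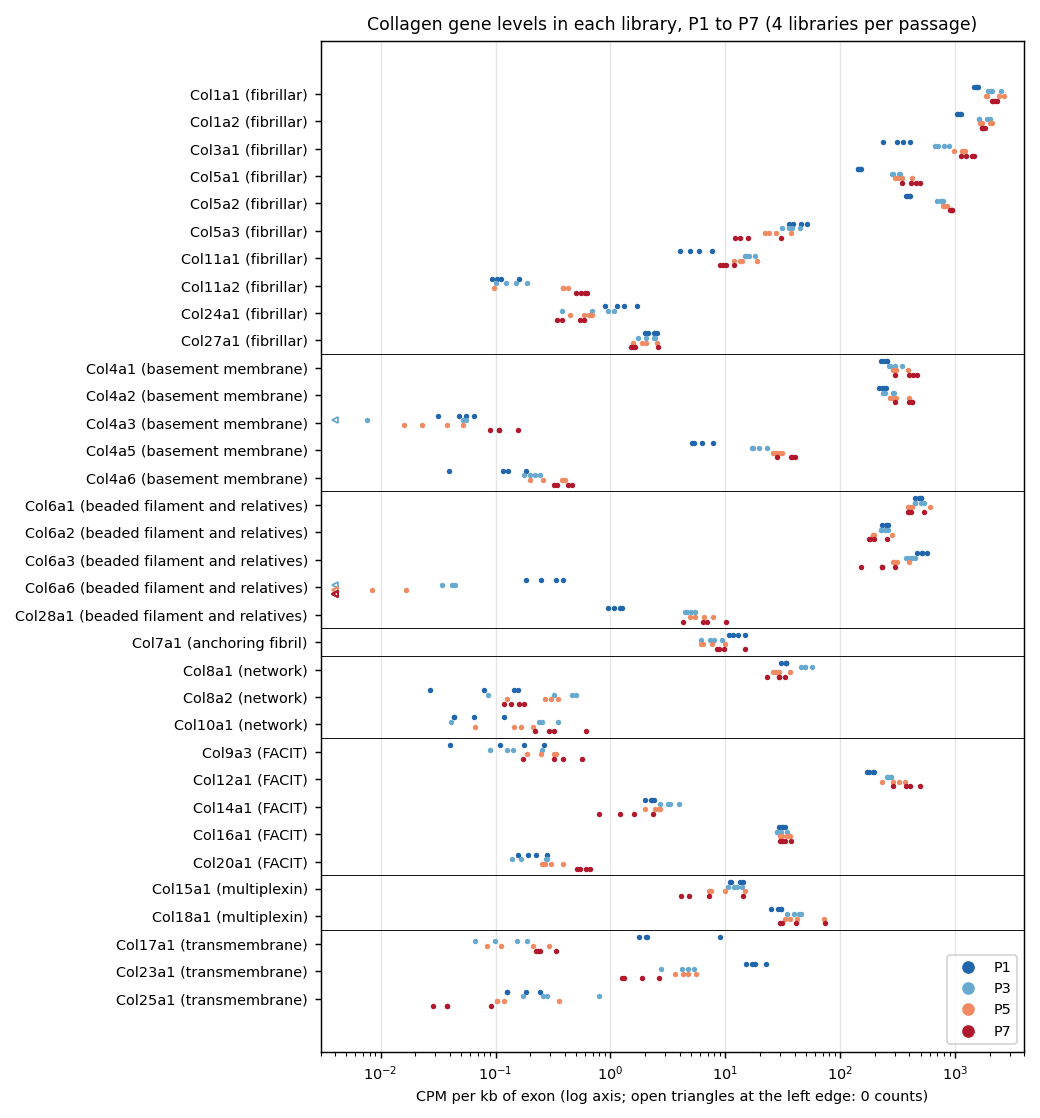
Level of the 34 members tested over passages, in CPM per kb of exon on a log axis, with 1 point per library, coloured by passage, and open triangles at the left edge for 0 counts. Col3a1 moves from about 300 to over 1000 CPM per kb and Col6a6 from P1 levels near 0.3 to 0 counts at P7.

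The passages were compared first, to see how the collagen genes moved on the way to RS. A gene was called where the edgeR adjusted p, over all genes tested, was under 0.05 and the fold change over 2. Of the 44 members, 34 passed the filter on low counts and were tested. The other 10 were Col2a1, Col4a4, Col6a4, Col6a5, Col9a1, Col9a2, Col13a1, Col19a1, Col22a1 and Col26a1, each at 1.44 CPM or less in every passage library. Between P1 and P7, 12 members rose and 7 fell, 19 of 34, where 21.4% of all 13442 genes tested were called, 8.1% higher and 13.3% lower. A member passes the filter also when it is high at only 1 of these passages. The median log2 fold change of the tested members was 0.57, also with Col6a6 held at its bound, against -0.01 over all genes.

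**Figure D2:**
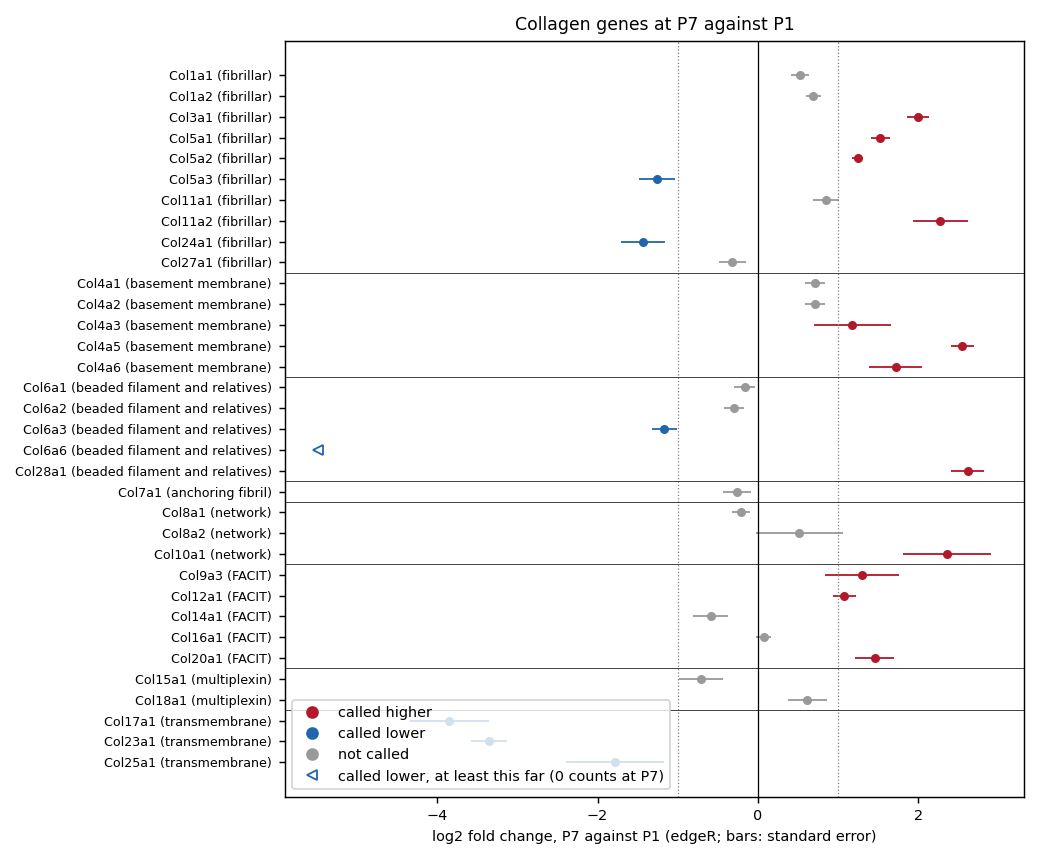
Log2 fold change of each tested member at P7 against P1 with its standard error, grouped by collagen class, in red or blue where called, and with a triangle for Col6a6, which had 0 counts at P7 and is drawn at the bound of its change. The type IV and type V chains other than Col5a3 lie right of 0 and the 3 transmembrane chains lie left of -1.

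Among the fibrillar chains 4 of the 10 tested rose and 2 fell. Col3a1 stood at 1966, 1731, 2227 and 1320 CPM in the P1 libraries and at 8094, 6223, 6878 and 7799 at P7. The P7 libraries all lay above those of P1, and the log2 change was 2.00 ( SE 0.14, adjusted p = 3.14e-10). The P3 libraries lay between these groups at 3741 to 4906 CPM, and the P5 libraries, at 5461 to 6711, overlapped those of P7.

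Col1a1 was at 9324, 8585, 9139 and 8941 CPM at P1 and at 12422, 13170, 12518 and 13712 at P7. Col1a2 was at 5914, 5496, 5712 and 5380 CPM at P1 and at 9413, 8875, 8956 and 9046 at P7. Neither gene overlapped between the groups, but both stayed under 2-fold, with log2 differences of 0.53 (SE 0.11, adjusted p = 4.52e-04) and 0.69 (SE 0.10, adjusted p = 3.51e-06). For both the difference was already there at P3 (log2 0.50 and 0.73 against P1), and P7 against P3 gave 0.03 and -0.04 with adjusted p of 0.868 and 0.764.

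The type V chains, which nucleate type I fibrils, split. Col5a1 was at 1221 to 1295 CPM at P1 and 2935 to 4192 at P7 (log2 1.53, SE 0.11), and Col5a2 was at 2491 to 2662 against 6005 to 6250 (log2 1.25, SE 0.07), with every P7 library above every P1 library. Col5a3, a further chain of the type, went from 302.5, 253.6, 335.4 and 237.7 CPM to 88.2, 104.2, 80.4 and 200.1 (log2 -1.26, SE 0.23, adjusted p = 7.62e-05). Replicate 4 was the highest P7 library for Col5a3 and yet below all of P1.

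The remaining fibrillar calls were of low level. Col11a2, a type XI chain of cartilage fibrils, was at 0.68 to 1.16 CPM at P1 and 3.63 to 4.53 at P7 (log2 2.27, SE 0.34, adjusted p = 1.02e-05). Col24a1, a minor fibrillar chain, was at 9.38, 8.09, 12.1 and 6.44 CPM at P1 and at 3.89, 2.70, 4.23 and 2.45 at P7 (log2 -1.44, SE 0.27). Col11a1 was higher at P3 than at P1 (117.3 to 142.5 against 31.99 to 60.5 CPM, log2 1.504, SE 0.16) and stood at 70.96 to 94.1 at P7, under 2-fold above P1.

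All 5 tested type IV chains had an adjusted p under 0.05 at P7 against P1, as 62.5% of all genes did, all higher, and 3 of them passed 2-fold. Col4a5, which pairs with Col4a6 in smooth muscle and skin basement membranes, was at 34.6, 41.0, 33.8 and 51.4 CPM at P1 and at 184, 249.8, 266.2 and 242.8 at P7. Every P7 library exceeded every P1 library, with a log2 change of 2.55 (SE 0.14, adjusted p = 1.79e-11). Col4a6, which is transcribed away from Col4a5 from a neighbouring start, was at 0.27 to 1.29 CPM at P1 and 2.23 to 3.19 at P7 (log2 1.72, SE 0.33). Col4a3 was called on at most 1.34 CPM in any passage library (log2 1.18, SE 0.49, adjusted p = 0.0407), and the call was lost without any one of P1 replicates 1, 2 and 3 and P7 replicates 1, 3 and 4. It passed the filter on low counts through the P7 libraries. Col4a1 and Col4a2, the abundant type IV pair, differed by log2 0.71 and 0.72. For Col4a1, 14.3% of its exonic bases also lie in other genes on the opposite strand, and reads were counted without regard to strand.

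The type VI chains did not move together. Col6a1 and Col6a2 were not called (log2 -0.17 and -0.29). Col6a3, the chain that joins them in the microfibril, was at 5582, 5099, 6123 and 5533 CPM at P1 and at 1636, 2505, 2528 and 3281 at P7 (log2 -1.17, SE 0.15, adjusted p = 1.73e-06). P3 (4040 to 4901 CPM) and P5 (3153 to 4291) had means in between, and the P5 range overlapped those of both P3 and P7. Col6a6, an alternative partner of Col6a1 and Col6a2, had 133 counts over the P1 libraries (3.01, 2.58, 1.91 and 1.42 CPM), 14 over the P3 libraries and 0 over the P7 libraries. Taking 3 counts over the group as the floor, it was at least 44.8-fold lower at P7 than at P1. It passed the filter on low counts through the P1 libraries. Col28a1, a related chain known from peripheral nerve, was at 5.62, 7.48, 6.36 and 7.24 CPM at P1 and at 41.1, 25.2, 37.6 and 59.8 at P7 (log2 2.61, SE 0.21, adjusted p = 2.35e-09), the largest rise of the family in this comparison. Markers of Schwann cells and melanocytes summed to 67.3 to 77.0 CPM at P1 and 61.95 to 141.7 at P7, with Sox10 the highest at P7 and Dct and Tyr at 0, and their part in the Col28a1 difference was not tested.

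In the network class, Col10a1, the collagen of hypertrophic cartilage, was at 0.14, 0.20, 0.14 and 0.37 CPM at P1. At P7 it was at 0.92, 1.00, 0.69 and 1.93 CPM (log2 2.36, SE 0.55, adjusted p = 1.00e-03). It had 2, 3, 2 and 6 counts at P1. In a fit of the P1 and P7 libraries only, Col10a1 and Col4a3 were not tested. Neither was tested with at least 10 counts required in every library. Col8a2, a type VIII chain known from the corneal endothelial membrane, was at 0.14, 0.75, 0.41 and 0.80 CPM at P1, at 2.56, 2.40, 1.68 and 0.44 at P3, at 0.65, 1.80, 1.55 and 1.39 at P5 and at 0.92, 0.69, 0.61 and 0.82 at P7. It was called higher at P3 than at P1 (log2 1.73, SE 0.48, adjusted p = 9.03e-03) and lower at P7 than at P3 (log2 -1.22, SE 0.46, adjusted p = 0.0343), though in both cases the groups overlapped. The P7 and P1 libraries overlapped and were not called apart (log2 0.52, SE 0.54). The P7 against P3 call was lost without any of P3 replicates 1, 2 and 3 or P7 replicates 2, 3 and 4. Its partner Col8a1 was at 156.3 to 173.7 CPM at P1 and 118.1 to 169.2 at P7 and was not called.

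Of the 5 FACIT chains tested, 3 rose. Col12a1, which coats type I fibrils and was the most abundant of them, went from 2398, 2516, 2792 and 2697 CPM to 4064, 5698, 6970 and 5224 (log2 1.08, SE 0.14). Col20a1 went from 1.24 to 2.19 CPM up to 4.05 to 5.25 (log2 1.46, SE 0.24), and Col9a3 from 0.12 to 0.82 up to 0.54 to 1.76 (log2 1.30, SE 0.46, adjusted p = 0.0196), with overlapping libraries. Neither multiplexin was called. Col15a1 and Col18a1 were both highest in replicate 4 at P7, at 81.3 and 533.6 CPM where the other P7 libraries had 23.7 to 41.5 and 215 to 300.2.

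All 3 transmembrane chains tested fell between P1 and P7. Col17a1, a hemidesmosome component that keratinocytes make, was at 11.6, 11.3, 50.2 and 9.84 CPM at P1 and at 1.30, 1.24, 1.84 and 1.34 at P7 (log2 -3.85, SE 0.49, adjusted p = 1.48e-06). Its highest library was P1 replicate 3, where the keratinocyte sum was also highest. Krt5 and Krt14 were at 19.9 to 150.3 and 17.3 to 134.2 CPM at P1 and at most 0.32 and 0.22 at P3, and the keratinocyte part of the Col17a1 difference was not tested. Col23a1 was at 102, 90.7, 135.1 and 109.6 CPM at P1, at 16.8 to 31.9 at P3, at 22.0 to 33.4 at P5 and at 11.3, 7.87, 15.99 and 7.65 at P7 (log2 -3.35, SE 0.22, adjusted p = 1.49e-10). Every later passage lay below P1. Col25a1 was at 1.03, 1.02, 1.504 and 1.98 CPM at P1 and at 0.31, 0.31, 0.23 and 0.74 at P7 (log2 -1.78, SE 0.61, adjusted p = 0.0161). Without P1 replicate 3, 18 of the 19 calls at P7 against P1 were kept, and Col4a3 was the exception. Of the other calls, that of Col9a3 was lost without any one of P1 replicates 2 and 4 and P7 replicate 1, that of Col25a1 without P1 replicate 4 and that of Col12a1 without P7 replicate 3.

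The steps between passages held different shares of these changes. At P3 against P1, 10 of 34 members were called, 7 higher and 3 lower, where 8.98% of all genes were, 2.4% higher and 6.58% lower. They were Col28a1 (log2 2.11), Col8a2 (1.73), Col4a5 (1.65), Col10a1 (1.63, SE 0.58, adjusted p = 0.0378), Col11a1 (1.504), Col3a1 (1.23) and Col5a1 (1.05) on the higher side, and Col17a1 (-4.85), Col6a6 (-3.19) and Col23a1 (-2.09) on the lower side. The Col10a1 call was lost without any one of P1 replicates 1, 2 and 3 and P3 replicates 1, 2 and 4, and the other 9 were kept in each case. At P5 against P3 a single member, Col11a2, was called (log2 1.19, SE 0.34, adjusted p = 0.0145), at a background of 3.89%, the groups overlapped, and that call was lost without P5 replicate 4. At P7 against P5 the calls were Col4a3 (log2 1.79, SE 0.52) and Col23a1 (log2 -1.35, SE 0.22), at a background of 3.47%. Col4a3 had 7, 2, 5 and 3 counts at P5 and 12, 10, 12 and 18 at P7, and passed the filter on low counts through the P7 libraries. With at least 10 counts required in every library it was not tested. Without P7 replicate 4 the count of calls at P7 against P5 was 4, with Col14a1, Col25a1 and Col5a3 lower beside Col23a1 and Col4a3 lost. The Col4a3 call was also lost without P5 replicate 2.

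From P3 to P7, 4 members rose and 6 fell, where 11.9% of all genes were called, 4.44% higher and 7.41% lower. Higher were Col11a2 (log2 2.00), Col4a3 (1.93), Col20a1 (1.45) and Col9a3 (1.23), and lower were Col25a1 (-2.90), Col23a1 (-1.26), Col8a2 (-1.22), Col14a1 (-1.14) and Col5a3 (-1.07), together with Col6a6, which was at least 4.43-fold lower with 14 counts at P3 and 0 at P7. Col6a6 passed the filter on low counts through the P1 libraries and Col4a3 through those of P7, and the counts of calls include both. In a fit of the P3 and P7 libraries only, Col6a6 was not tested. With at least 10 counts required in every library, neither Col6a6 nor Col4a3 was tested. The Col9a3 call was lost without any one of P3 replicates 2, 3 and 4 and P7 replicates 1 and 4, that of Col5a3 without P3 replicate 1 or P7 replicate 1 or 3, and that of Col14a1 without P7 replicate 1. Over the 4 passages, the group mean rose at every step for 12 tested members, fell at every step for 8 and was mixed for 14. The share over all genes was not computed, so these counts describe the members only.

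The enzymes that process collagen were followed from a list of 31 genes, of which 28 were tested over passages. At P7 against P1, 4 (14.3%) were called, all higher, where 21.4% of all genes were, and 18 had an adjusted p under 0.05, all higher, as did 62.5% of all genes in either direction. The largest changes were in Loxl2 and Lox, which crosslink collagen (log2 2.43, SE 0.11, and 1.25, SE 0.12), and Tll1, a protease that trims procollagen (log2 1.76, SE 0.18). The median over the list was 0.42 against -0.01 over all genes. Of 9 tested collagen receptors 4 were called (44.4%, against the same 21.4%). Itga11, the integrin chain with which fibroblasts hold fibrillar collagen, and Mrc2, an endocytic receptor of collagen fragments, rose (log2 2.54, SE 0.17, and 1.33, SE 0.11), and Lair1, a leukocyte receptor, and Itga2 fell (log2 -3.83, SE 0.54, and -2.23, SE 0.26). Of the 8 collagen-degrading proteases, Mmp3 and Mmp8 fell (log2 -3.89, SE 0.22, and -2.87, SE 0.20), with Mmp3 at 632.7 to 1083 CPM at P1 and 39.7 to 59.5 at P7, and the other 6 were not called.

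Promoter peaks were then compared at P7 against P1, to see whether open chromatin at the collagen genes differed as well. The peak lists carry no read counts, so depth is unknown. For each gene the strongest peak within 1000 bases of an annotated start was ranked among all peaks of its sample, as a percentile, with 0 for no peak. Of the 44 members 42 were tested, all but Col4a6 and Col9a1. The rank was called in 16, lower in 14 and higher in 2 (limma, adjusted p under 0.05), where 33.3% of all 17516 genes were called, 22.8% lower and 10.5% higher. The samples held 168982 to 186562 peaks at P1 and 200376 to 231558 at P7, a difference that moves with the passage, and its part in the ranks was not tested.

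**Figure D3:**
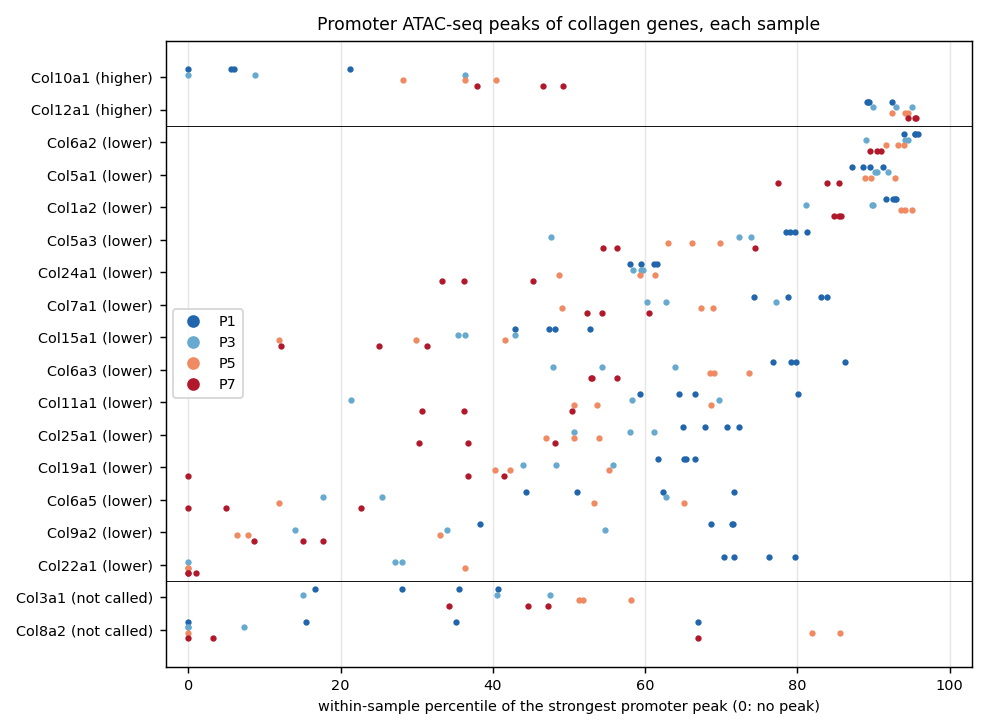
Within-sample percentile of the strongest promoter peak of the 16 called members and of Col3a1 and Col8a2, which were not called, with 1 point per sample coloured by passage and 0 for no peak. In the 2 upper rows the P7 samples lie right of P1, and in the 14 rows below them they lie left of P1.

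The higher promoters were those of Col10a1 and Col12a1. The Col10a1 peak ranked at 21.2, 0, 6.04 and 5.56 at P1 and at 46.6, 37.9 and 49.2 at P7, a difference of 36.4 points (SE 8.05, adjusted p = 0.00495). The Col12a1 peak ranked at 89.3, 89.4, 92.4 and 89.1 at P1 and at 95.6, 95.4 and 94.6 at P7 (5.15 points, SE 1.18, adjusted p = 0.00596). The mRNA of both genes was also called higher at P7 than at P1, though Col10a1 was not tested in a fit of those passages only. With fold enrichment in place of rank, which calls 23.7% of all genes, 6 of the 16 were called (Col12a1, Col22a1, Col25a1, Col6a3, Col6a5 and Col9a2), Col10a1 was not (adjusted p = 0.0791), and Col27a1, Col4a3 and Col4a4 were added. The peak that Col4a3 and Col4a4 share was lower at P7 by this measure (log2 -1.91, SE 0.56, limma adjusted p = 0.0263), while Col4a3 mRNA was called higher.

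On the lower side the Col22a1 promoter moved furthest, from 76.3, 71.7, 79.7 and 70.4 at P1 to 0, 0.95 and 0 at P7 (-74.2 points, SE 8.95, adjusted p = 1.69e-04), at a gene that was too low in RNA to test. Col9a2 (-48.7), Col6a5 (-48.1), Col19a1 (-38.6), Col25a1 (-30.7) and Col11a1 (-28.6) followed. Col6a3 ranked at 76.8, 79.8, 86.2 and 79.2 at P1 and at 52.9, 56.3 and 53.0 at P7 (-26.4 points, SE 4.01, adjusted p = 5.80e-04), and its RNA was lower too, as it was for Col25a1, Col24a1 and Col5a3. In all, 6 members were called in both assays in the same direction, and the share over all genes was not computed. Of these, Col12a1, Col25a1 and Col6a3 were also called by fold enrichment, and Col10a1, Col24a1 and Col5a3 were not. Col5a1 was called in opposite directions, with a lower promoter rank (-6.82 points, SE 1.85, adjusted p = 0.0140) and a higher mRNA level, and by fold enrichment its peak was not called (limma adjusted p = 0.159).

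Col1a2, whose promoter carries the CCAAT box shown above, had a lower rank at P7 (92.6, 91.6, 92.9 and 92.8 at P1 and 85.7, 85.5 and 84.8 at P7, -7.17 points, SE 1.75), although its mRNA was higher by less than 2-fold. The fold enrichment of that peak differed by log2 -0.03 (SE 0.12, limma adjusted p = 0.889). The Col3a1 peak ranked at 40.7, 28.0, 16.6 and 35.5 at P1 and at 47.3, 44.6 and 34.2 at P7, ranges that overlapped (11.8 points, SE 7.78, adjusted p = 0.264). The Col8a2 peak was present in 8 of the 13 samples and ranged from 0 to 66.9 at P1 and from 0 to 66.9 at P7, so that no difference was detectable (SE 21.9 points). Col4a1 with Col4a2, and Col4a3 with Col4a4, start head to head and share the same peaks.

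The E2f4 overexpression libraries tested what raised E2f4 did to these genes in pre-senescent cells. Of 35 members tested (all but Col4a3, Col4a4, Col6a4, Col6a5, Col6a6, Col13a1, Col19a1, Col22a1 and Col26a1), 5 rose and 3 fell, where 18.1% of all 13199 genes were called, 7.69% higher and 10.4% lower. The risers were all 3 type IX chains, Col9a3 (log2 4.23, SE 0.36, adjusted p = 1.35e-05), Col9a2 (log2 2.62, SE 0.71) and Col9a1 (log2 2.30, SE 0.76, adjusted p = 0.0232), with Col2a1 (log2 1.95, SE 0.17, adjusted p = 1.38e-05) and Col25a1 (log2 2.07, SE 0.49). Type II and type IX are the collagens of cartilage fibrils.

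Col2a1 was at 148 and 225.3 CPM in the controls and at 736.7 and 701.1 with E2f4. Col9a3 was at 0.22 and 0.58 CPM in the controls and at 7.96 and 6.26 with E2f4. Col9a1 had 6 and 0 counts in the controls and 19 and 17 with E2f4, and Col9a2 1 and 4 against 26 and 13. Col9a3 had 5 and 10 counts against 219 and 131, and Col25a1 11 and 4 against 52 and 25. Col9a1, Col9a2, Col9a3 and Col25a1 thus passed the filter on low counts through the E2f4 libraries. The count of risers given above includes them. With at least 10 counts required in every library, Col9a1, Col9a2, Col9a3, Col20a1 and Col25a1 were not tested. Col9a1 and Col9a2 stayed under 1 CPM in all 4 libraries, and DESeq2 did not call Col9a1 (adjusted p = 0.0573). The Col9a1 call was also lost without control replicate 2 or E2f4_OE replicate 2, that of Col9a2 without control replicate 1 or E2f4_OE replicate 1, and that of Col25a1 without E2f4_OE replicate 1.

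Of 8 cartilage markers 4 were tested, and 2, Sox9 and Comp, were called, both higher (log2 2.06, SE 0.12, and 1.94, SE 0.40). The 8 summed to 321.1 and 330.5 CPM in the controls and to 765.3 and 766.9 with E2f4, with Acan at 264.1 and 278.4 against 557.8 and 524.3, Sox9 at 55.4 and 50.9 against 205 and 239, and Snorc at 0 in all 4. Acan fell short of 2-fold (log2 0.996, SE 0.10), and Hapln1 was at 0.44 and 0.23 against 0.11 and 0.14. The part of cartilage-like cells in the type II and IX differences was not tested. For Col9a3, 7.67% of its exonic bases, and for Col2a1 6.69%, overlap genes on the other strand.

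The members that fell with E2f4 were Col20a1 (log2 -2.52, SE 0.37), Col7a1 (log2 -1.78, SE 0.11) and Col24a1 (log2 -1.58, SE 0.29). Col7a1, the anchoring fibril chain, was at 137.7 and 148.3 CPM in the controls and at 41.4 and 41.7 with E2f4. Col20a1 was at 2.27 and 2.54 against 0.40 and 0.43. Col1a1 was at 9466 and 12365 CPM against 11650 and 11697 (log2 0.10, adjusted p = 0.494), Col1a2 at 8290 and 8014 against 7463 and 7455 (log2 -0.13, adjusted p = 0.211), and Col3a1 at 2564 and 2491 against 1991 and 2049 (log2 -0.32, SE 0.09, adjusted p = 9.91e-03). None of the 3 passed 2-fold. Of 29 processing genes 3 were called (10.3%, where 10.4% of all genes were called lower), namely Plod2, which hydroxylates lysines (log2 -1.31), Loxl2 (-1.26) and Lox (-1.06), all lower.

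With the E2f4 hairpin, 1 of 30 members tested was called, Col8a2, where 1.67% of all 12310 genes were. It was at 3.01, 1.97 and 1.84 CPM with the non-targeting hairpin and at 6.13, 6.46 and 8.86 with sh1. The groups did not overlap, and the change was 3.13-fold (log2 1.64, SE 0.26, adjusted p = 6.59e-04). E2f4 overexpression gave Col8a2 12.97 and 15.3 CPM in the controls and 23.0 and 23.1 with E2f4, higher as well but under 2-fold (log2 0.71, SE 0.14, adjusted p = 1.63e-03). Col1a1 (log2 -0.42, SE 0.07), Col1a2 (-0.30, SE 0.05) and Col3a1 (-0.48, SE 0.06) were lower with sh1 with adjusted p of 1.19e-03, 1.06e-03 and 1.40e-04, all under 2-fold. Col1a1 stood at 16485, 16631 and 15935 CPM against 13512, 12573 and 10683.

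**Figure D4:**
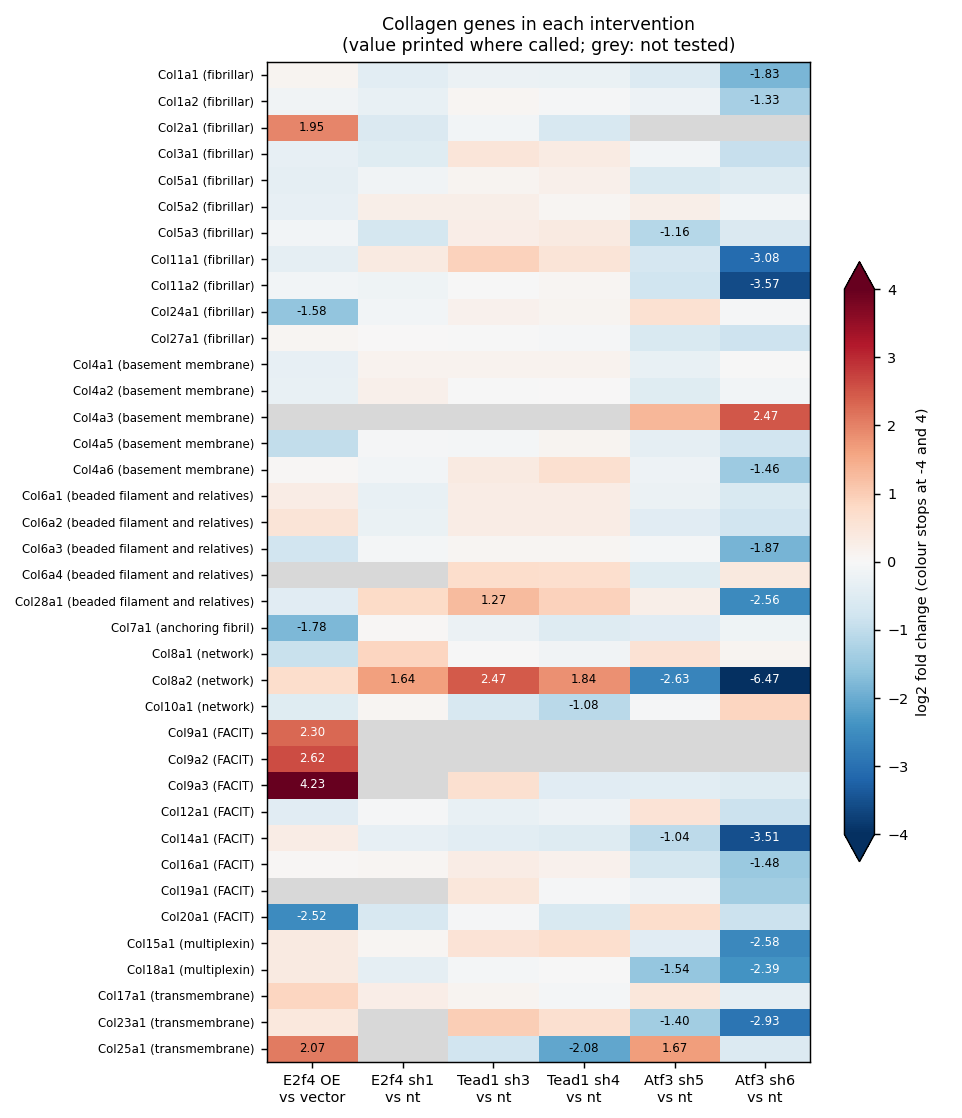
Log2 fold change of the 38 members tested in at least 1 intervention, by collagen class, with red for higher and blue for lower than the control of that experiment, the value printed where called, grey where not tested and the colour scale ending at -4 and 4. Col8a2 is red in the E2f4 and Tead1 columns and blue in both Atf3 columns, where it reaches -6.47, beyond the scale.

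Tead1 knockdown left most collagen genes within 2-fold. Tead1 encodes a DNA-binding partner of the growth coactivator YAP. Hairpin sh3 gave 2 calls among 35 members, Col8a2 and Col28a1, both higher, where 2.71% of all 13012 genes were called, 1.99% higher. Hairpin sh4 gave 3, Col8a2 higher and Col10a1 and Col25a1 lower, where 1.53% were, 1.01% higher and 0.523% lower.

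Col8a2 was at 3.06, 2.49 and 2.79 CPM in Tead1_nt, at 13.05, 16.3 and 16.9 with sh3 and at 10.15, 9.91 and 9.86 with sh4. Each hairpin library exceeded each control library, by 5.53-fold with sh3 (log2 2.47, SE 0.14) and 3.58-fold with sh4 (log2 1.84, SE 0.15). Its directions with the Tead1 and Atf3 hairpins were known when the collagen genes were chosen, so these values are a description. The counts of calls with sh3 and sh4 given above include Col8a2. The hairpins differed by log2 -0.63 (sh4 against sh3, SE 0.12, adjusted p = 5.81e-04), short of 2-fold. Col28a1 was at 2.37, 2.61 and 2.22 CPM in the controls, at 5.30, 7.22 and 4.84 with sh3 (log2 1.27, SE 0.20) and at 4.12, 5.28 and 4.26 with sh4, where it was not called.

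Col10a1 was at 6.01, 7.31 and 7.96 CPM in the controls, at 4.05, 4.91 and 4.68 with sh3 and at 3.97, 2.92 and 3.18 with sh4 (log2 -1.08, SE 0.17), and the sh4 call fell short of 2-fold without Tead1_nt replicate 3 or without Tead1_sh4 replicate 2. Col25a1 was at 1.10, 0.91 and 0.78 CPM against 0.26, 0.17 and 0.22 with sh4 (log2 -2.08, SE 0.52, adjusted p = 2.74e-03). It had 19, 16 and 15 counts in the controls and 5, 3 and 4 with sh4, and passed the filter on low counts through the control libraries. With at least 10 counts required in every library Col25a1 was not tested. In the test against 1.5-fold neither Col25a1 nor Col10a1 was called with sh4. Between the hairpins, 0 of 35 members were called, by edgeR and by DESeq2, where 0.269% of all genes were called by edgeR. At an unadjusted p under 0.05, 15 members differed, as did 20.5% of all genes.

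The major chains moved little. Col3a1 was at 2325, 2403 and 2398 CPM in Tead1_nt, at 3280, 3303 and 3475 with sh3 (log2 0.50, SE 0.03) and at 2988, 3044 and 2893 with sh4 (log2 0.33, SE 0.03). The groups did not overlap and the adjusted p was 6.78e-13 and 9.55e-09, so that these small differences exceeded the spread between libraries. Col1a1 had log2 differences of -0.24 with sh3 and -0.26 with sh4, and Col1a2 differed by 0.06 and -0.04 with adjusted p of 0.116 and 0.331. The 44 members took 5.22% to 5.55% of counts in the controls and 5.32% to 5.53% with the hairpins. Of 29 processing genes, Adamts3, which cleaves procollagen, was called with sh3 (log2 1.58, SE 0.50, adjusted p = 0.0128) and none with sh4, and among 8 receptors Itga2 was called with sh3 (log2 1.06, SE 0.42, adjusted p = 0.0490).

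Collagen genes of several classes were lower with the Atf3 hairpins, more of them with sh6 than with sh5. Atf3 encodes a stress-induced bZIP transcription factor. Hairpin sh5 gave 6 calls among 35 members, 5 lower and 1 higher, where 5.2% of all 13345 genes were called, 3.82% lower and 1.38% higher. Hairpin sh6 gave 14, 13 lower and 1 higher, where 15.7% were, 10.9% lower and 4.83% higher. The counts of both hairpins include Col8a2, whose direction was known beforehand. The median over members was -0.35 and -0.82, against -0.03 and -0.02 over all genes, and without replicate 3 of sh5 the first was -0.25.

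Col8a2 was the most strongly lowered member with each. It was at 42.7, 49.1 and 55.7 CPM in Atf3_nt, at 7.37, 10.1 and 6.37 with sh5 and at 0.70, 0.18 and 0.76 with sh6. The 3 groups did not overlap. The log2 change was -2.63 with sh5 (SE 0.22) and -6.47 with sh6 (SE 0.31).

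**Figure D5:**
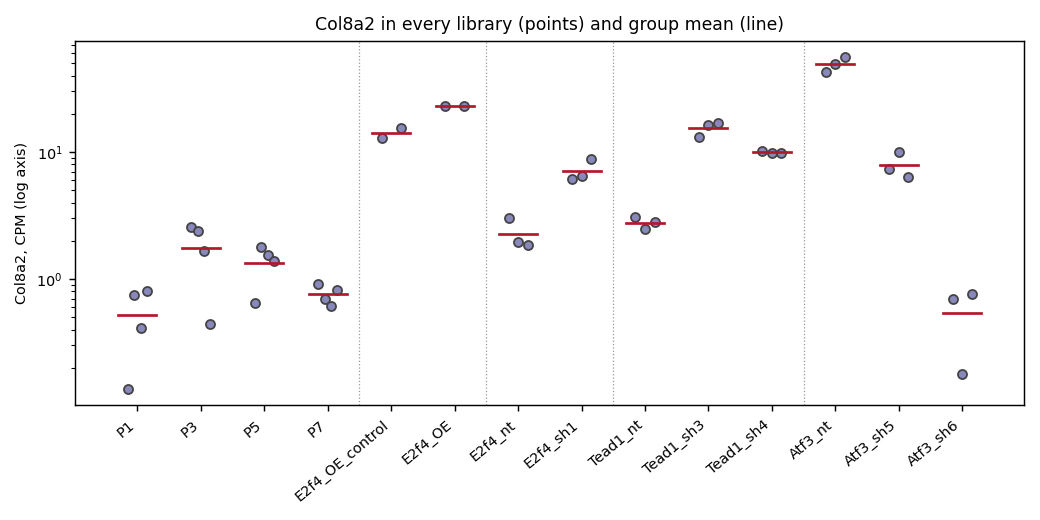
Col8a2 in CPM on a log axis in each of the 44 libraries, as points, with the mean of each group as a line and dotted lines between experiments. Within each experiment, the hairpin groups lie above their control for E2f4 and Tead1 and below it for Atf3.

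With sh5 the other lower members were Col18a1 (64.1, 79.4 and 76.2 against 28.2, 33.3 and 13.9 CPM, log2 -1.54, SE 0.26), Col23a1 (log2 -1.40, SE 0.31), Col5a3 (log2 -1.16, SE 0.32) and Col14a1 (log2 -1.05, SE 0.15). Col25a1 rose, from 0.93, 1.15 and 0.88 CPM to 3.52, 2.71 and 3.21 (log2 1.67, SE 0.23, adjusted p = 8.79e-04). Replicate 3 of sh5 departed from its partners for several chains, with Col1a1 at 6986 CPM beside 13442 and 14142, Col11a2 at 0.34 beside 2.71 and 3.79, and Col5a3 at 16.2 beside 48.0 and 51.0. Without it Col5a3 and Col14a1 were no longer called (log2 -0.763 and -0.998), and Col8a2, Col18a1, Col23a1 and Col25a1 were kept. Col5a3 was not called either without Atf3_nt replicate 2 or 3, nor Col14a1 without Atf3_nt replicate 1.

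With sh6 the largest decreases after Col8a2 were in Col11a2 (log2 -3.57, SE 0.69, adjusted p = 1.61e-03), Col14a1 (-3.51, SE 0.17), Col11a1 (-3.08, SE 0.09), Col23a1 (-2.93, SE 0.36) and Col15a1 (-2.58, SE 0.16). Col14a1, a FACIT chain of skin and tendon, was at 20.7, 16.9 and 19.3 CPM in the controls and at 1.28, 1.74 and 1.98 with sh6. Col11a1 was at 174.7, 189.6 and 178.6 against 20.8, 19.96 and 23.5 CPM, with no overlap. Col15a1 was at 19.5, 19.7 and 22.4 against 3.60, 3.66 and 3.02 CPM. The other 7 members called lower, from Col28a1 at -2.56 to Col1a2 at -1.33, included Col1a1 and Col6a3. Col4a3 rose, from 0.51, 0.16 and 0.28 CPM to 1.86, 2.28 and 1.39 (log2 2.47, SE 0.48, adjusted p = 1.66e-03). It had 12, 3 and 6 counts in the controls and 32, 38 and 24 with sh6. It thus passed the filter on low counts through the hairpin libraries. With at least 10 counts required in every library, Col4a3, Col8a2, Col11a2 and Col23a1 were not tested.

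The type I chains fell with sh6, and the hairpins differed for both (sh6 against sh5, log2 -1.29, SE 0.21, for Col1a1 and -1.13, SE 0.13, for Col1a2). Col1a1 was at 16525, 17335 and 16256 CPM in the controls and at 4705, 4591 and 4803 with sh6 (log2 -1.83, SE 0.21, adjusted p = 4.78e-05), against a log2 of -0.54 with sh5 (adjusted p = 0.0622), which was -0.25 (SE 0.05, adjusted p = 7.37e-04) without replicate 3 of sh5. Col1a2 was at 11340, 12192 and 11715 CPM against 4716, 4492 and 4843 with sh6 (log2 -1.33, SE 0.13, adjusted p = 1.29e-05), and 11468, 11470 and 7906 with sh5 (log2 -0.19, adjusted p = 0.240, and -0.008 without replicate 3 of sh5). Col3a1 was at 4944, 5187 and 5193 CPM in the controls, at 5276, 5597 and 3263 with sh5 and at 2682, 2502 and 2911 with sh6 (log2 -0.92, SE 0.17, adjusted p = 9.79e-04, under 2-fold). The 44 members took 5.56% to 5.96% of counts in the controls, 5.51%, 5.62% and 3.86% with sh5 and 2.64% to 2.84% with sh6.

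Tested directly, sh6 and sh5 differed for 15 of 35 members, 14 of them lower with sh6, where 15.8% of all genes differed, 9.39% lower and 6.36% higher. The 6 furthest were Col8a2 (log2 -3.85, SE 0.33), Col28a1 (-2.81, SE 0.27), Col11a2 (-2.76, SE 0.72), Col14a1 (-2.46, SE 0.18), Col11a1 (-2.40, SE 0.09) and Col25a1 (-2.23, SE 0.25). Col4a3 was higher with sh6 (log2 1.14, SE 0.43, adjusted p = 0.0458), a call lost without any one of sh5 replicates 1 and 2 and sh6 replicates 1, 2 and 3. Without replicate 3 of sh5 the same 15 were called and Col3a1, Col16a1 and Col18a1 were added. The skeletal muscle markers were at 38.1 to 39.5 CPM in the controls, 14.6 to 18.1 with sh5 and 197.2 to 217.3 with sh6, nearly all of it Acta1 (206 CPM with sh6), with Myog, Actn2 and Pax7 at 0. All 4 of the muscle markers tested were called with sh6, Acta1 and Mylpf higher (log2 2.56 and 2.08) and Tnnt3 and Des lower (-2.64 and -1.01). The cartilage markers were at 59.2 to 65.7, 35.6 to 50.5 and 15.3 to 17.02 CPM, with Sox9 highest, and the fibroblast markers at 13793 to 14534, 15968 to 19253 and 8355 to 8893. The part of these cells in the sh6 differences was not tested.

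Other genes of collagen metabolism went both ways with sh6. Of 29 processing genes 6 were called (20.7%), all lower, where 15.7% of all genes were called and 10.9% lower, with Lox (log2 -1.75, SE 0.07), Adamts3 (-1.72, SE 0.45) and P4ha3, a prolyl hydroxylase chain (-1.63, SE 0.09), the furthest. Of 8 receptors 3 fell, the integrin chains Itga10 (-2.02, SE 0.28) and Itga11 (-1.72, SE 0.09) and the kinase Ddr1 (-1.26, SE 0.30). Of 7 proteases, Mmp13, an interstitial collagenase (log2 3.14, SE 0.42), and Mmp3 (2.29, SE 0.23) rose. With sh5 none of the 29 processing genes was called, while 3 proteases rose, among them Fap (1.502, SE 0.24) and Mmp13 (1.499, SE 0.45), and Mmp9 fell (-1.15, SE 0.27).

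The Tead1 and Atf3 knockdowns were fitted together, with the mean effect of 2 hairpins on each side, to test the difference between them. It was called for 15 of 36 members, 12 more positive with Tead1 knockdown. Of all 13610 genes 11.4% were called, 8.2% more positive and 3.19% more negative. The 15 and the 12 include Col8a2, whose opposite directions were known beforehand. For Col8a2 the difference was 6.68 on the log2 scale, given as a description. Col23a1 (2.95, SE 0.38), Col11a1 (2.58, SE 0.08), Col28a1 (2.22, SE 0.27), Col11a2 (2.18, SE 0.54) and Col15a1 (2.10, SE 0.13) followed on that side. Col4a3 (-2.98, SE 0.70), Col25a1 (-2.01, SE 0.40) and Col10a1 (-1.30, SE 0.22) were more negative with Tead1 knockdown, though Col4a3 was too low to be tested in the Tead1 libraries alone. Without Atf3_sh5 replicate 3, Col5a3 and Col6a3 were lost from the 15 and Col19a1 was added, and Col6a3 was also lost without Tead1_nt replicate 2 or Atf3_nt replicate 2. Of the members given with a value here, all but Col10a1 also differed between sh6 and sh5 when tested directly. For these the mean on the Atf3 side averages unlike effects. Col28a1 was called with sh6 and not with sh5, and Col25a1 with sh5 and not with sh6. Cell source and experiment cannot be told apart here.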

How the data were processed

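Mouse skin fibroblast RNA-seq (44 libraries) and ATAC-seq (13 samples) were analysed; RRBS samples were not analysed here. The deposited RNA-seq values are raw counts per gene, which the authors made with HTSeq 0.12.4, ignoring strand, from HISAT2 2.2.1 alignments (mm10) of reads trimmed by Trimmomatic 0.39. Rows outside genes, 7.5% to 16.8% of the reads in the intervention files, were left out. ATAC-seq reads were aligned by the authors with Bowtie2 2.3.5.1 and peaks called per sample with MACS2, and the deposited peak lists hold a score, a fold enrichment and -log10 p and q values. No read counts came with the peaks.

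Counts were tested with edgeR 4.0.16 in R 4.3.3 (filterByExpr, TMM, quasi-likelihood F test), 1 fit per experiment with all its groups and 1 joint fit for Tead1 and Atf3. Adjusted p is Benjamini-Hochberg over all genes tested, a call needs adjusted p under 0.05 and over 2-fold, and the standard error is the size of the log2 fold change over the square root of F. Promoter peaks were ranked within each sample and tested with limma 3.58.1 where at least 3 samples had a peak. The scripts were tested on simulated data. Values are CPM on TMM-adjusted library sizes over the genes tested, and depth ran from 9147324 to 27552949 counts.

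The members and lists were chosen with earlier results of these data known. Named by rule were Col1a1, Col1a2 and Col3a1 in the passages and interventions, Col8a2 everywhere, up to 6 called members per direction and comparison by size of change, untested members, and up to 3 called genes per other list. Other members given with values, such as Col5a1, Col5a2, Col6a1, Col6a2, Col4a1, Col4a2, Col8a1 and Col11a1 at P7, and the list genes Mrc2, Acan, Hapln1 and Des, were chosen after their values were seen. Alternatives were DESeq2 1.42.0, its size factors, other filters, a replicate block, a test against 1.5-fold, only the groups compared, each library left out, and for peaks a window of 500 bases, -log10 q of at least 5 and fold enrichment. Leaving out each library from the joint fit, and the Atf3 level and member median without replicate 3 of sh5, were added after the data were seen. Symbols were matched to RefSeq (all 44 members), and promoters are from RefSeq on GRCm38.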

Additional observations from a re-analysis of the deposited data

Results flagged for a closer look

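Among the 180 groups of 4 libraries or samples that were checked, 13 held a value far from the other 3 by Dixon's test, where chance alone gives about 1 in 20. In the RNA, Col17a1 stood out at P1 replicate 3 (50.2 CPM), the library with the highest keratinocyte markers, and at P7 replicate 3 (1.84). Col25a1 was highest in replicate 4 at P3 (6.44), P5 (2.91) and P7 (0.742), and so were Col6a1 at P5 (2388) and P7 (2119), Col6a2 at P5 (1711) and Col27a1 at P7 (22.1). Col11a2 was low in P5 replicate 1 (0.711) and Col8a1 in P1 replicate 3 (156). In the promoter peaks, Col12a1 in P1 sample 3 ranked at 92.4 and Col9a2 in P1 sample 2 at 38.3.

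The effects of Atf3 hairpins sh6 and sh5 differed by a direct test for 15 members. The log2 differences, sh6 against sh5, were -3.85 for Col8a2, -2.81 for Col28a1, -2.76 for Col11a2, -2.46 for Col14a1, -2.40 for Col11a1, -2.23 for Col25a1 and -2.13 for Col15a1. They were -1.80 for Col6a3, -1.57 for Col20a1, -1.53 for Col23a1, -1.39 for Col12a1, -1.29 for Col1a1, -1.25 for Col4a6, -1.13 for Col1a2 and 1.14 for Col4a3. Atf3 itself was at 1.51 to 2.09 CPM with sh6 and 0.45 to 2.10 with sh5, and the cause of the difference was not tested.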

How the results depend on the processing

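The count of called members kept within 1.5 times of its value in 84 of 98 alternatives that kept all libraries, DESeq2 and its size factors included. With at least 10 counts in every library, which tests fewer genes, it was 6 at P3 against P1, 12 at P7 against P1, 5 at P7 against P3, 1 at P7 against P5 and 3 with E2f4 overexpression. A test against 1.5-fold gave 0 at P5 against P3, 1 at P7 against P5, 2 with E2f4 sh1, 1 with Tead1 sh4 and 3 with Atf3 sh5, and no filter gave 2 at P5 against P3. Fold enrichment in place of rank gave 9 promoter peaks, 2 higher and 7 lower. Leaving out 1 library gave 1 to 2 calls at P5 against P3, 2 to 4 at P7 against P5 and 1 to 2 with E2f4 sh1.

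Replicate numbers were not taken to pair the samples, since the labels name no shared animal or batch and not every correlation was over 0.1, with correlations of same-numbered deviations from -0.262 to 0.276 over passages, -0.045 to 0.112 for Tead1, -0.158 to 0.137 for Atf3, 0.023 to 0.034 for E2f4 knockdown and 0.142 for the 2 pairs of E2f4 overexpression. As a hint from the data only, 10 of 16 passage libraries, 6 of 6 for E2f4 knockdown, 5 of 9 for Tead1 and 2 of 9 for Atf3 correlated best with a library of their own number. Over passages the replicate 4 libraries correlated positively in every pair, from 0.105 to 0.276. The labels do not say whether they form a single series. With the replicate block, 2 members were called at P5 against P3 and 4 at P7 against P5, Col1a1 at P7 against P5 was 0.002 in place of -0.006, Col4a3 was lost at P7 against P1 and between the Atf3 hairpins, and Col25a1 was added at P3 against P1 and Col17a1 at P7 against P3.

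Signs turned for small differences that passed no test. Col1a1 at P7 against P5 was 0.003 with only the groups compared, and 0.014, 0.015, 0.045 and 0.096 without single libraries. Without single libraries it was -0.014, -0.019 and -0.070 at P5 against P3 (range to 0.119), -0.020 and -0.002 at P7 against P3 (to 0.113) and -0.082 with E2f4 overexpression (to 0.299). Col1a2 at P7 against P3 was 0.027 without P3 replicate 1, and Col3a1 with Atf3 sh5 ran from -0.259 to 0.116, the latter without sh5 replicate 3. The cause of these turns was not tested. Col9a1 and Col9a2 had at most 26 counts in any library, so depth leaves their changes imprecise.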
